A study of Mus musculus with 18 samples.

Results

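The myogenic regulatory factors described here are Myod1, Myog, Myf5, Myf6, Pax7 and Mef2c, measured in soleus, a slow postural muscle of the calf, and extensor digitorum longus (EDL), a fast muscle that lifts the toes, of mice flown in space and of 2 groups of ground control mice. Their probe sets were taken by the deposited annotation, as those that name one of these genes and no other. This gave 10 probe sets for 6 genes, of 22626 probe sets and 12393 named genes tested, with 5 probe sets for Mef2c and 1 for each of the other 5 genes. The 18 arrays, Affymetrix 3-prime expression arrays for mouse, were 3 per muscle and condition. BF mice spent 30 days in orbit on the satellite Bion M1. FC mice stayed in standard cages of the animal facility, and BG mice in a replicate of the flight habitat on ground. All were adult male C57BL/N6 mice (strain C57/BL6 in the labels), and no mutation or drug is named for any group. BF and BG mice ate paste food and FC mice chow, and only BF mice were transported after a landing. Flight therefore cannot be told apart from transport or landing, nor from diet or housing in BF vs. FC. The labels do not say whether muscles of one replicate number came from one mouse, nor that replicates were separate animals. The paper counts the 18 samples as 18 muscles, 3 per muscle type and condition, without stating that each replicate came from another mouse. P-values measure the spread between these samples, which may in part be technical.

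Myod1, Myog, Myf5 and Myf6 (also called MRF4) are basic helix-loop-helix transcription factors that turn on the genes of skeletal muscle. They pair with E proteins, bind the E-box, and can convert other cells to muscle when forced on. Myf5 and Myod1 act first, in muscle precursor cells, Myog drives their differentiation, and Myf6 is the member most strongly expressed in mature fibres. Pax7, a paired box factor, marks satellite cells, the resident stem cells of the adult muscle. Mef2c belongs to the MADS box family and works beside the helix-loop-helix factors on muscle promoters. In adult muscle Myod1 is known as a factor of fast fibres and Myog of slow fibres, and both are known to increase when a muscle loses its nerve.

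By their Entrez numbers, the genes lie in the mouse assembly GRCm38.p6 at chr7:46376474-46379092 (Myod1), chr1:134290004-134292548 (Myog), chr4:139737059-139833530 (Pax7) and chr13:83504017-83667079 (Mef2c). Myf5 (chr10:107482908-107486927) and Myf6 (chr10:107492848-107494723) are close neighbours on chromosome 10. RefSeq promoters of this assembly, 250 bases before to 50 bases after a start site, matched 4 of the 6 genes, with 3 promoters for Mef2c. The promoter of Myog and the first of Mef2c are printed because they hold letters that factors of both families bind. In BF soleus Myog also rose, while the Mef2c probe sets lay lower than in BG soleus, not all of them called. Capitals mark the E-box CANNTG, bound by the helix-loop-helix factors, and the MEF2 core TANNNNTA with only A or T at its 4 middle bases, both searched on both strands; the marked matches do not overlap. Both promoters lie on the plus strand, at chr1:134289754-134290053 for Myog and chr13:83503784-83504083 for Mef2c.
Myog: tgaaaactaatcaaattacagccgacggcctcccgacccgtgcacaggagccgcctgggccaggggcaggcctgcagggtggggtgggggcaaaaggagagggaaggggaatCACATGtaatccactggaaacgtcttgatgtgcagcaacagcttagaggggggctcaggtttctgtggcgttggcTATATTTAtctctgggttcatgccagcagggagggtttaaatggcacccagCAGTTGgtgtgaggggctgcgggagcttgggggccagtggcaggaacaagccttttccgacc
Mef2c: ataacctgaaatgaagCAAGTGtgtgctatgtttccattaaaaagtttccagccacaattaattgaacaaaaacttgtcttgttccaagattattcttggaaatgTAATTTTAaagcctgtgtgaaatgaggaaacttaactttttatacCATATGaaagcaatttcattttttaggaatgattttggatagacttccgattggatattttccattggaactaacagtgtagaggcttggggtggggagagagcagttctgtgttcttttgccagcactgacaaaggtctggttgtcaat

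Each of these promoters held 2 E-boxes and 1 MEF2 core. In Myog the E-boxes lay at -138 to -133 and -12 to -7 from the start site and the MEF2 core at -63 to -56. In Mef2c the E-boxes lay at -234 to -229 and -100 to -95 and the core at -145 to -138. Of all 32851 mouse promoters of this length, 72.3% held an E-box, 39.6% held 2 or more, and 9.3% held the MEF2 core. The promoters of Myf5 and Pax7 held neither motif in this window. Of the other Mef2c promoters, chr13:83523406-83523705 held neither motif. That at chr13:83573357-83573656 held 1 E-box and no MEF2 core. These are matches of letters only, and binding was not measured.

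The values are RMA signals in log2 units, on which a difference of 1 is a 2-fold change. Array medians ran from 6.17 to 6.26. Slow fibre genes told the muscles apart, with summed signals of 80454 to 134100 over 11 genes in soleus and 1993 to 19526 in EDL, so that every array fell with its labelled muscle. By 6 epidermis markers (Krt5, Krt14, Krt10, Krt1, Lor and Dsp), 4 arrays stood apart. The mean log2 signal of these markers was 6.10 and 6.58 in BF soleus replicates 1 and 2, 6.43 in FC EDL replicate 2 and 7.66 in BG EDL replicate 2, against 4.67 to 5.25 on the other 14 arrays. On every array the Myf5 signal lay between the 26th and 44th percentile of all probe sets and the Pax7 signal between the 23.4th and 35.8th, among the dimmer probe sets. A whole muscle was measured, so more cells of a type and more RNA per cell cannot be told apart.

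In soleus, 3 of the 6 factors rose in BF mice against both ground groups: Myf6, Myog and Myod1. In the comparison with BG mice, 11.1% of all genes rose, and in that with FC mice 9.02%. A gene was called when limma, fitted over all probe sets, gave an adjusted p under 0.05. With a change above 2-fold required as well, the same 3 factors passed, where 1.96% of all genes did so against BG and 1.82% against FC. Between FC and BG soleus none of the 6 was called at the probe set that stands for each gene, while 5.78% of genes were higher and 4.03% lower in FC.

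**Figure D1:**
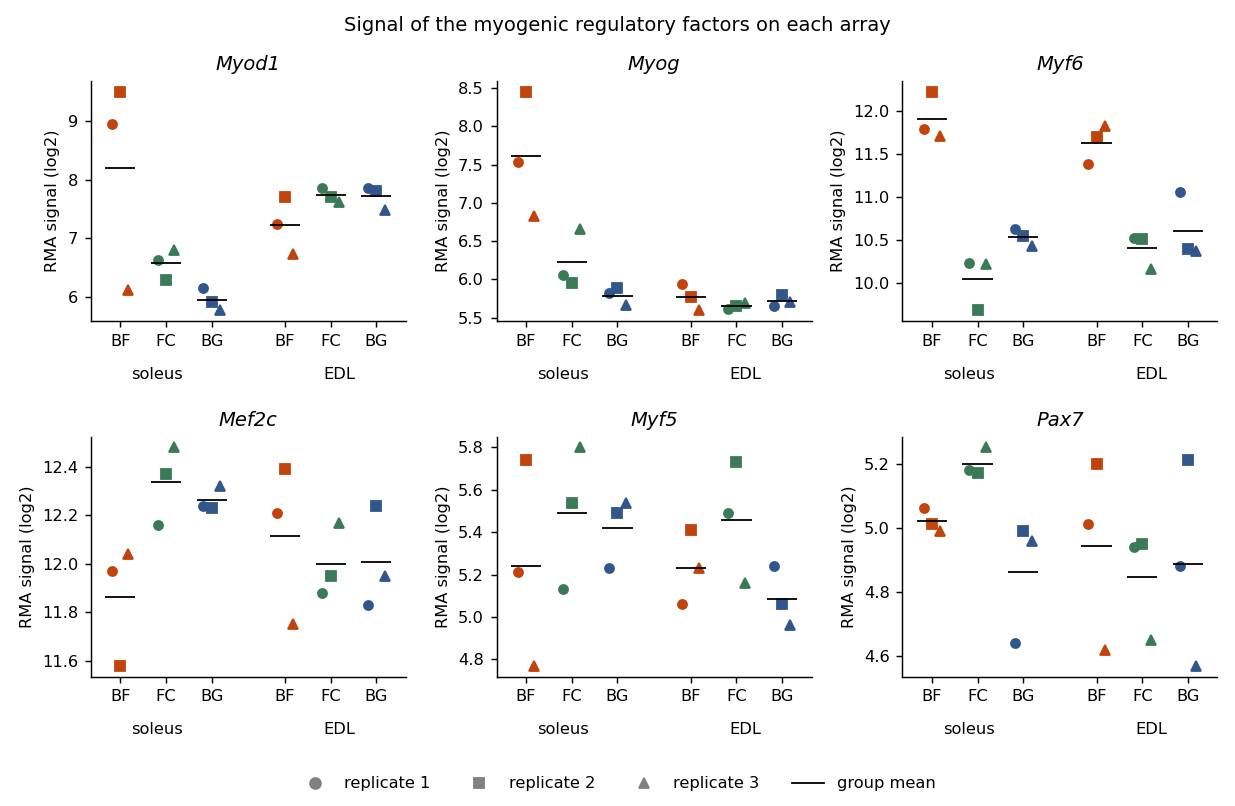
RMA signal (log2, vertical axis) of the 6 factors on the 18 arrays, by condition within soleus and EDL; each symbol is 1 array, its shape the replicate number, and lines are group means (n = 3). In soleus all BF values of Myog and Myf6 lie above all ground values, while Myod1 is high on 2 BF arrays and at 6.13 on the third; the vertical scale differs between panels.

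Myf6 separated flown from ground soleus most clearly. Its signal was 11.79, 12.22 and 11.71 on the BF arrays, 10.24, 9.69 and 10.23 on the FC arrays and 10.63, 10.55 and 10.43 on the BG arrays. All 3 BF values lay more than 1 log2 unit above the highest ground value. The difference was 1.37 ± 0.20 (SE) for BF vs. BG, or 2.58-fold (limma adjusted p = 2.24e-04), and 1.85 ± 0.20 for BF vs. FC, or 3.6-fold (adjusted p = 1.51e-05). Of all genes, 9.56% likewise had their 3 BF soleus arrays above all 6 ground soleus arrays. Both calls held under each of 16 alternatives, where the difference ran from 1.17 to 1.5 against BG and from 1.65 to 1.95 against FC. FC soleus was 0.48 ± 0.20 lower than BG in this fit (adjusted p = 0.128), which passed only with array quality weights (-0.57, adjusted p = 0.0232).

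Myog, the differentiation factor, gave 7.54, 8.45 and 6.83 in BF soleus, 6.06, 5.96 and 6.66 in FC soleus and 5.82, 5.89 and 5.66 in BG soleus. The groups did not overlap, although the lowest BF array lay only a little above the highest FC array. Compared with BG it rose by 1.81 ± 0.27, or 3.52-fold (adjusted p = 2.57e-04). Compared with FC it rose by 1.38 ± 0.27, or 2.6-fold (adjusted p = 0.00148). The FC minus BG difference was 0.44 ± 0.27 (adjusted p = 0.317), with a 95% interval from -0.13 to 1.01.

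Myod1 was the least even of the 3 within the flown group. It gave 8.95, 9.49 and 6.13 in BF soleus, 6.64, 6.29 and 6.80 in FC soleus and 6.16, 5.92 and 5.78 in BG soleus. BF replicates 1 and 2 lay far above every ground soleus, while BF replicate 3 lay below all FC arrays and within the range of BG. Relative to BG its mean rose by 2.24 ± 0.54, or 4.72-fold (adjusted p = 0.00766), and relative to FC by 1.62 ± 0.54, or 3.06-fold (adjusted p = 0.0383). Every SE of Myod1 comes from 1 variance pooled over the 6 groups. Its SD was 1.81 in BF soleus and 0.12 to 0.49 in the other groups. The SE and p-values of comparisons with BF soleus therefore understate the spread of that group. Without BF soleus replicate 3 the rise was 3.27 against BG and 2.65 against FC. Against FC the call was lost without BF replicate 1 (1.23, adjusted p = 0.154), without BF replicate 2 (0.97, adjusted p = 0.191) and without FC replicate 1, 2 or 3 (adjusted p = 0.0726, 0.118 and 0.068). It was also lost with the soleus arrays fitted alone (adjusted p = 0.1) and with ordinary linear contrasts (0.0927).

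The same 2 BF soleus arrays that were highest in Myod1 and Myog were the 2 with high epidermis markers. The 6 markers summed to a signal of 212 to 819 in BF soleus, 224 to 258 in FC soleus and 199 to 258 in BG soleus. Of the 6, Krt1 rose against BG (0.55 ± 0.16, adjusted p = 0.0243) and 0 passed against FC. Krt2, an epidermal keratin outside that list, was 6.37, 7.71 and 3.38 in BF soleus against 3.54, 3.82 and 3.58 in FC soleus and 3.38, 3.12 and 3.13 in BG soleus. Krt2 was picked as 1 of the 3 genes that correlate best with Myod1 over these soleus arrays. Its likeness to Myod1 was fixed by that choice and adds no separate evidence. Both EDL arrays with high epidermis signal had a Myod1 signal within the range of the other arrays of their group. BG EDL replicate 2, at 7.66 for the markers, had 7.80 for Myod1 and 5.80 for Myog, against 7.86 and 7.48 for Myod1 and 5.65 and 5.71 for Myog in the other BG EDL. FC EDL replicate 2, at 6.43, had 7.71 for Myod1 and 5.65 for Myog, each between the other FC EDL arrays.

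With the 4 arrays left out, a setting chosen after seeing the data that leaves 1 flown soleus assumed to vary like the other groups, Myog still rose against BG (1.04, adjusted p = 0.0162) and Myf6 against BG (1.17, adjusted p = 0.0233). The Myog rise over FC was then 0.60 (adjusted p = 0.0988). Myod1 differed by 0.18 from BG (adjusted p = 0.759) and by -0.45 from FC (adjusted p = 0.365), so its direction against FC turned. What part skin, or anything else that differed between the flown arrays, had in the Myod1 values was not tested.

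**Figure D2:**
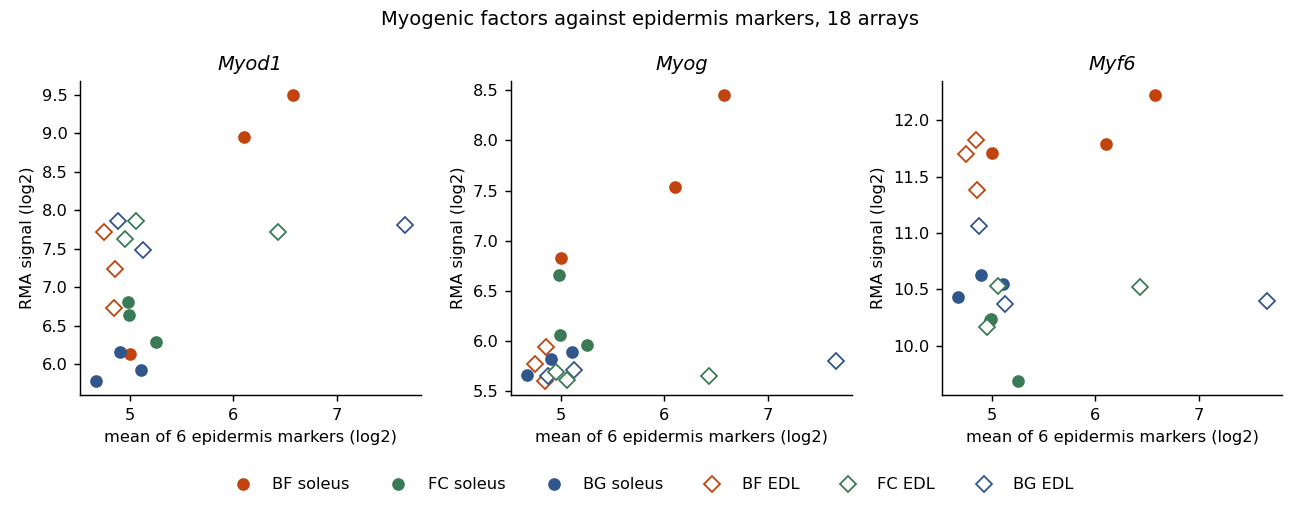
RMA signal (log2, vertical axis) of Myod1, Myog and Myf6 against the mean log2 signal of 6 epidermis markers (horizontal axis) on the 18 arrays, coloured by condition, with filled circles for soleus and open diamonds for EDL. BF soleus replicates 1 and 2 are high on both axes for Myod1 and Myog, whereas BG EDL replicate 2, at 7.66 on the horizontal axis, lies among the other EDL arrays.

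Markers of other cells also moved with flight in soleus, where 11.1% of all genes rose and 12.3% fell against BG. Against FC 9.02% of all genes rose and 16% fell. Of 5 fat cell markers measured, 4 rose against BG and 4 against FC (Adipoq, Lep, Cidec and Retn), with summed signals of 7315 to 15701 in BF, 6476 to 7795 in FC and 7722 to 9816 in BG. Of 7 endothelial markers, 4 fell against BG and 5 against FC, with sums of 1013 to 1332 in BF, 1691 to 1970 in FC and 1698 to 1786 in BG. Of 7 connective tissue markers, 4 fell against BG and 3 against FC (sums of 7646 to 12885 in BF, 15336 to 17684 in FC and 12739 to 14447 in BG), and of 6 tendon markers 5 fell against BG and 4 against FC (sums of 1121 to 3377 in BF, 4724 to 8498 in FC and 4301 to 6809 in BG). Of 4 Schwann cell markers 3 rose against BG and 0 against FC (sums of 4630 to 7631 in BF, 2965 to 4322 in FC and 1748 to 4885 in BG), and of 7 macrophage markers Cd68 rose against both while Csf1r fell against FC (sums of 1684 to 3628 in BF, 1448 to 1758 in FC and 1030 to 1186 in BG). Fast fibre genes rose beside the myogenic factors, 5 of 12 against BG and 5 against FC, led against BG by Actn3 (4.43 ± 0.50) and Myh4 (4.26 ± 0.79), and 1 of 11 slow fibre genes fell against both (Casq2, -2.06 ± 0.18 against BG). The slow fibre sums were 80454 to 109579 in BF, 128011 to 131543 in FC and 131446 to 134100 in BG, with no overlap of BF with either, and the list medians were -0.68 against BG and -0.64 against FC, where those of all genes were 0.03 and 0. The fast fibre sums were 142151 to 181935 in BF, 117449 to 130653 in FC and 123378 to 130289 in BG. The part of these shifts in the myogenic factor values was not tested.

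Mef2c moved the other way, and its probe sets did not move alike. The probe set with the highest mean signal (1421027_a_at) gave 11.97, 11.58 and 12.04 in BF soleus, 12.16, 12.37 and 12.48 in FC soleus and 12.24, 12.23 and 12.32 in BG soleus. All BF values lay below all ground values, by a small margin. The share of all genes separated downward in this way was not counted. It fell by 0.47 ± 0.16 against FC, or 1.39-fold (adjusted p = 0.0441), and differed by -0.40 ± 0.16 from BG (adjusted p = 0.0885). Of all genes, 16% fell against FC and 12.3% against BG. With the 4 high-epidermis arrays left out the differences were -0.30 from FC (adjusted p = 0.396) and -0.22 from BG (adjusted p = 0.554). The FC call was lost in 9 of 16 alternatives, among them without BF replicate 1 or 2 (adjusted p = 0.0553 and 0.182) and without FC replicate 2 or 3 (adjusted p = 0.112 and 0.151).

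Against BG the other 4 probe sets of Mef2c all fell, where 11.9% of all probe sets did so. The differences were -0.36 ± 0.12 for 1424852_at, -0.54 ± 0.16 for 1451506_at, -0.63 ± 0.17 for 1421028_a_at and -0.82 ± 0.16 for 1451507_at, with adjusted p from 0.00164 to 0.0383. Against FC only 1421027_a_at and 1424852_at (-0.41 ± 0.12, adjusted p = 0.0177) fell, where 13.8% of all probe sets did so, and 1421028_a_at differed by -0.01 ± 0.17. Without BF soleus replicate 2, the lowest array, the falls against BG of 1424852_at, 1451506_at and 1421028_a_at no longer passed (adjusted p = 0.157, 0.0969 and 0.0604), nor did that of 1424852_at without BG replicate 1, 2 or 3 (0.0689, 0.0848 and 0.108) or that of 1451506_at without BG replicate 3 (0.0881). The fall of 1451507_at held without any single array (-0.89 to -0.75). With the 4 high-epidermis arrays left out none of these falls against BG passed: the differences were -0.22 for 1424852_at (adjusted p = 0.357), -0.35 for 1451506_at (0.354), -0.31 for 1421028_a_at (0.392) and -0.67 for 1451507_at (0.0991), and all but that of 1451507_at were smaller by over 1.5 times. Against FC the fall of 1424852_at was lost without BF replicate 2 (adjusted p = 0.0869), without FC replicate 3 (0.0641) and with those 4 arrays left out (-0.27, adjusted p = 0.223).

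The probe set 1451507_at showed the split between the ground groups best. It gave 9.83, 9.71 and 9.99 in BF soleus, 9.82, 10.01 and 10.22 in FC soleus and 10.52, 10.78 and 10.70 in BG soleus. BG soleus stood alone above all others, while BF and FC overlapped. How many of all probe sets showed such a split was not counted. FC soleus was 0.65 ± 0.16 lower than BG on this probe set (adjusted p = 0.0137) and 0.62 ± 0.17 lower on 1421028_a_at (adjusted p = 0.0251), where 5.94% of all probe sets were lower in FC. These FC calls were lost when single arrays were left out: for 1451507_at without BG replicate 2 or 3 or FC replicate 1 or 2 (adjusted p = 0.0543, 0.0518, 0.0632 and 0.0547), and for 1421028_a_at without BG replicate 1, 2 or 3 or FC replicate 1 or 2 (adjusted p = 0.0509, 0.0739, 0.0779, 0.0959 and 0.089). Which transcript forms each probe set reads was not analysed here.

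**Figure D3:**
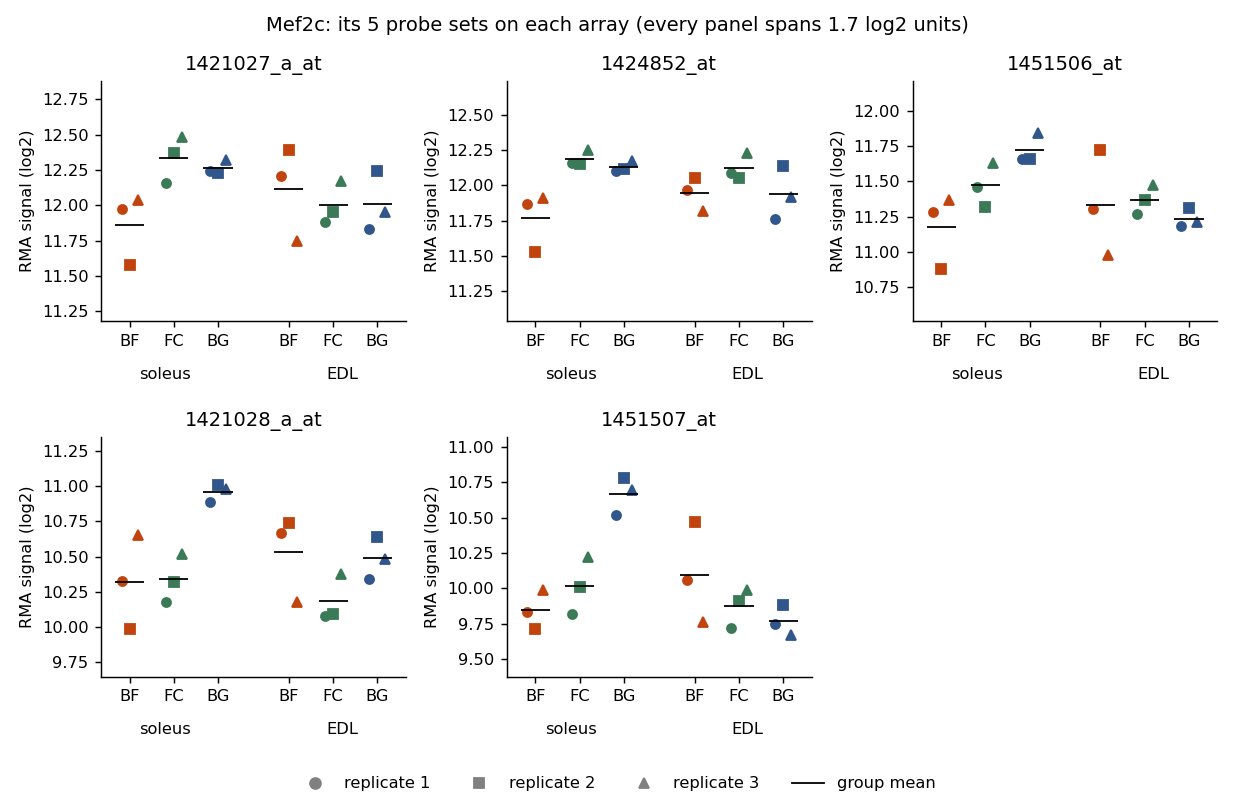
RMA signal (log2, vertical axis, 1.7 units in every panel) of the 5 Mef2c probe sets on the 18 arrays, by condition within each muscle, with group means as lines (n = 3). BF soleus lies below BG soleus on each probe set, while FC soleus lies with BG on 1421027_a_at and 1424852_at and with BF on 1421028_a_at.

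Myf5 and Pax7, the factors of precursor and satellite cells, were not called in any comparison. Myf5 gave 5.21, 5.74 and 4.77 in BF soleus, 5.13, 5.54 and 5.80 in FC soleus and 5.23, 5.49 and 5.54 in BG soleus, and the groups overlapped. The difference was -0.18 from BG, with a 95% interval from -0.63 to 0.27, and -0.25 from FC, from -0.70 to 0.20. Pax7 gave 5.06, 5.01 and 4.99 in BF soleus, 5.18, 5.17 and 5.25 in FC soleus and 4.64, 4.99 and 4.96 in BG soleus. BF lay below FC on all arrays and at or above the highest BG value, with differences of -0.18 (interval from -0.52 to 0.16) from FC and 0.16 (from -0.18 to 0.50) from BG. These intervals leave room for changes of up to about 0.7 log2 units in Myf5 and 0.52 in Pax7.

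**Figure D4:**
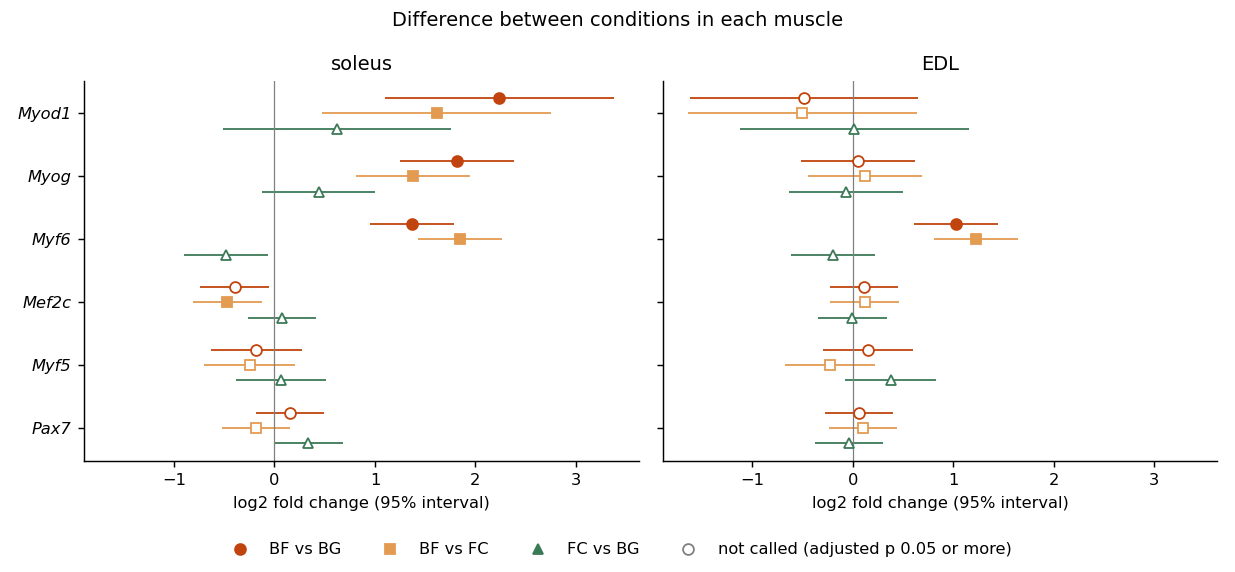
Log2 fold change (horizontal axis) of the 6 factors between conditions in soleus and EDL, with 95% intervals from the limma fit; filled symbols passed an adjusted p under 0.05. Myod1, Myog and Myf6 lie to the right and are filled for both flight comparisons in soleus, and in EDL Myf6 alone is filled.

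In EDL, Myf6 was the 1 factor of 6 that rose in BF mice, against a background of 0.266% of genes that rose and 0.113% that fell for BF vs. BG, and 1.02% and 2.52% for BF vs. FC. Its signal was 11.38, 11.70 and 11.82 in BF EDL, 10.53, 10.52 and 10.17 in FC EDL and 11.06, 10.40 and 10.37 in BG EDL. The lowest BF array lay above the highest ground array, as it did for 3.44% of all genes in EDL. Myf6 rose by 1.22 ± 0.20 against FC, or 2.33-fold (adjusted p = 0.00326), and by 1.02 ± 0.20 against BG, or 2.03-fold (adjusted p = 0.0338). Both changes were also above 2-fold, as were those of 0.347% of genes against FC and 0.25% against BG. The FC call held in all 16 alternatives (1.03 to 1.35). The BG call was lost without BF replicate 2 or 3 (adjusted p = 0.126 and 0.0862), without BG replicate 2 or 3 (0.136 and 0.185), with the 4 high-epidermis arrays left out (0.122), with the EDL arrays fitted alone (0.0764) and with the replicate number as a block (0.0693), while the difference stayed between 0.87 and 1.25.

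The other 5 factors were not called in EDL. Myod1 gave 7.24, 7.71 and 6.73 in BF EDL, 7.86, 7.71 and 7.62 in FC EDL and 7.86, 7.80 and 7.48 in BG EDL, and the BF mean was 0.49 below BG, with an interval from -1.63 to 0.65. Myog gave 5.94, 5.77 and 5.60 in BF EDL, 5.61, 5.65 and 5.69 in FC EDL and 5.65, 5.80 and 5.71 in BG EDL, a difference of 0.05 from BG with an interval from -0.52 to 0.62. Myf5 lay between 4.96 and 5.73 on the 9 EDL arrays and Pax7 between 4.57 and 5.21. The 5 Mef2c probe sets differed from BG by 0.01 to 0.33 in BF EDL, with the largest for 1451507_at (adjusted p = 0.419). FC and BG EDL differed in none of the 6 factors, where 0.0323% of genes differed in either direction.

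The flight response itself was compared between muscles, as the BF minus BG difference of soleus less that of EDL. It was 2.73 ± 0.76 for Myod1 (adjusted p = 0.0362) and 1.76 ± 0.38 for Myog (adjusted p = 0.0129), where 4.21% of genes were called higher and 5.04% lower. On the Mef2c probe set 1451507_at it was -1.15 ± 0.22 (adjusted p = 0.00686). For Myf6, which rose in both muscles, it was 0.34 ± 0.28 (adjusted p = 0.445), with an interval from -0.25 to 0.93. The Myod1 call was lost in 11 of 21 alternatives, among them without BF soleus replicate 1 (2.35, adjusted p = 0.0916) or 2 (2.08, adjusted p = 0.0608) and with the 4 high-epidermis arrays left out (0.62, adjusted p = 0.388). The same setting gave 0.95 for Myog (adjusted p = 0.109) and -1.06 for 1451507_at (adjusted p = 0.0905). Without BG soleus replicate 2 or 3, BF EDL replicate 1 or 3 or any 1 BG EDL array, the Myod1 difference stayed between 2.48 and 2.84 but missed the threshold (adjusted p from 0.0526 to 0.0784).

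Measured against FC instead, no factor was called in this difference of responses, where 2.04% of genes were called in either direction. The values were 2.12 ± 0.76 for Myod1 (adjusted p = 0.18), 1.25 ± 0.38 for Myog (adjusted p = 0.105), 0.63 ± 0.28 for Myf6 (adjusted p = 0.295) and -0.59 ± 0.23 for Mef2c (adjusted p = 0.22). Without BF soleus replicate 3 Myod1 (3.15, adjusted p = 5.64e-05) and Myog (1.64, adjusted p = 0.00488) were called.

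Within 1 condition the muscles were compared directly. In BF mice Myog was higher in soleus by 1.83 ± 0.27 (adjusted p = 9.43e-04), or 3.56-fold, and Myod1 by 0.97 ± 0.54 (adjusted p = 0.257), where 12.4% of genes were called in either direction. Without BF soleus replicate 3 the Myod1 difference was 2.0 (adjusted p = 4.34e-05), and with the 4 high-epidermis arrays left out that of Myog was 1.05 (adjusted p = 0.107) and that of Myod1 -1.10. In FC mice none of the 6 was called, with Myod1 at -1.15 ± 0.54 (adjusted p = 0.175) and Myog at 0.58 ± 0.27 (adjusted p = 0.171), where 16.4% of genes were called; with the 4 high-epidermis arrays left out both passed (-1.16 and 0.58, adjusted p = 0.00489 and 0.0424). In BG mice Myod1 was lower in soleus by 1.76 ± 0.54 (adjusted p = 0.0342), where 8.71% of genes were lower and 8.3% higher, and the Mef2c probe sets 1451507_at (0.90 ± 0.16, adjusted p = 7.24e-04) and 1451506_at (0.48 ± 0.16, adjusted p = 0.048) were higher. The Myod1 call in BG mice was lost on leaving out any 1 of its 6 arrays (-1.88 to -1.67, adjusted p from 0.0626 to 0.101). Its BG values did not overlap, at 5.78 to 6.16 in soleus and 7.48 to 7.86 in EDL. The pooled variance behind the Myod1 tests in FC and BG mice also holds the spread of BF soleus (SD 1.81). Leaving out the 4 high-epidermis arrays took BF soleus replicates 1 and 2 out of that variance. The call of 1451506_at in BG mice was likewise lost on leaving out any 1 array (0.42 to 0.52, adjusted p from 0.0757 to 0.16). Its difference was 0.52 with the 4 high-epidermis arrays left out.

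As group means ± SD (n = 3), Myod1 ran from 8.19 ± 1.81 in BF soleus through 7.73 ± 0.12 in FC EDL, 7.71 ± 0.21 in BG EDL, 7.23 ± 0.49 in BF EDL and 6.58 ± 0.27 in FC soleus to 5.95 ± 0.19 in BG soleus. Neighbours in this order overlapped except FC and BG soleus. Myog ran from 7.60 ± 0.81 in BF soleus and 6.23 ± 0.38 in FC soleus to 5.79 ± 0.12 in BG soleus, and the 3 EDL groups, at 5.77, 5.65 and 5.72 in BF, FC and BG, overlapped BG soleus or one another. Myf6 had its 2 flown groups on top, 11.90 ± 0.28 in soleus and 11.63 ± 0.23 in EDL, which overlapped. They were followed by BG EDL (10.61 ± 0.39), BG soleus (10.54 ± 0.10), FC EDL (10.41 ± 0.20) and FC soleus (10.06 ± 0.32), each overlapping the next. For Myf5 all neighbours overlapped, between 5.49 ± 0.34 in FC soleus and 5.09 ± 0.14 in BG EDL, and for Pax7 only FC soleus (5.20 ± 0.04) stood clear of the next group, BF soleus (5.02 ± 0.04).

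The genes around the factors are given as counts, beside 11.1% of all genes that rose and 12.3% that fell in soleus for BF vs. BG, and 9.02% and 16% for BF vs. FC. Calls of these genes, and of the cell and fibre markers above, are those of the fit to all 18 arrays. Some of them were lost under the alternatives, which are not given gene by gene. Of 8 E proteins and co-activators measured, 1 fell, Hes6 (-0.57 ± 0.13, adjusted p = 0.00478), which favours myogenic differentiation and opposes Hes1, and against FC Hes6 (-0.82 ± 0.13) and the E protein gene Tcf3 (-0.44 ± 0.14) fell. Of 16 inhibitors and repressors of MyoD, Hes1, a Notch effector, fell (-0.91 ± 0.16, adjusted p = 0.00104) and Bhlhe41, a repressor of MyoD, rose (0.42 ± 0.12, adjusted p = 0.0175). Against FC 2 rose (Bhlhe41 and Snai1) and 3 fell (Hey1, Hes1 and Snai2). The Id genes, which bind E proteins away from the myogenic factors, were called in neither comparison. Of 6 other MEF2 factors and class IIa histone deacetylases, 0 were called against BG, while against FC Mef2a rose (0.53 ± 0.11) and Mef2d (-0.76 ± 0.20), Hdac5 (-0.59 ± 0.18) and Hdac7 (-0.48 ± 0.13) fell; the deacetylases hold MEF2 factors silent. Between the ground groups Mef2a was lower in FC (-0.37 ± 0.11), and Hdac5 and Hdac7 were higher (0.56 ± 0.18 and 0.66 ± 0.13).

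Of 13 upstream factors of the myogenic programme, 3 rose against BG: the homeobox gene Six2 (0.78 ± 0.21), Eya4 (0.57 ± 0.12), whose product is a transcriptional co-activator, and Dmrt2 (0.55 ± 0.13). Against FC Eya4 and Dmrt2 rose (0.53 ± 0.12 and 0.71 ± 0.13) and Tbx1 (-1.18 ± 0.29), Lbx1 (-0.93 ± 0.26) and Pitx3 (-0.47 ± 0.16) fell. Of 17 satellite cell markers, Chrdl2 rose (0.36 ± 0.12) and Chodl (-0.97 ± 0.30) and Spry1 (-0.40 ± 0.14) fell against BG. Against FC 1 rose and 5 fell, Notch3 the most (-1.05 ± 0.22). The satellite cell list had a median of 0.00 against BG, and all genes 0.03. Of 15 cell cycle genes, Mcm2 rose (0.31 ± 0.10) and Mcm3 fell (-0.42 ± 0.12) against BG, and Pcna (0.77 ± 0.17) and Cdk1 (0.60 ± 0.20) rose against FC.

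Of 19 known differentiation and fusion targets of the factors, 16 were not called against BG, where 11.1% of all genes rose and 12.3% fell. The cell cycle inhibitors Cdkn1a (1.30 ± 0.34, adjusted p = 0.0119) and Cdkn1c (1.17 ± 0.16, adjusted p = 1.33e-04) rose against BG. Myh3, the embryonic myosin heavy chain, fell (-2.41 ± 0.32, adjusted p = 1.15e-04), and the list median was -0.02. Myh3 was 6.91, 6.51 and 5.96 in BF soleus, 8.52, 8.48 and 8.39 in FC soleus and 9.34, 8.87 and 8.39 in BG soleus. All BF values lay below all ground values, a separation whose share among all genes was not counted, while FC and BG overlapped. Against FC 1 rose (Cdkn1a, 2.18 ± 0.34) and 3 fell (Myh3, Ccnd3 and Igf2), where 9.02% of all genes rose and 16% fell.

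Of 17 synaptic and denervation-responsive targets, 4 rose and 4 fell against BG. Those that rose were Musk (1.66 ± 0.40, adjusted p = 0.00762), the receptor kinase of the neuromuscular junction, Gadd45a (0.70 ± 0.22), Runx1 (0.66 ± 0.14) and Chrnb1 (0.56 ± 0.19). Those that fell were Sln (-1.85 ± 0.41), whose product inhibits the calcium pump, Dach2 (-1.17 ± 0.41), a repressor of Myog, Lrp4 (-0.89 ± 0.16), the co-receptor of Musk, and Chrna1 (-0.68 ± 0.13), a subunit of the acetylcholine receptor. Musk was 9.26, 10.19 and 8.31 in BF soleus, 7.28, 7.17 and 7.46 in FC soleus and 7.86, 7.45 and 7.48 in BG soleus, and like Myog it was highest in BF replicate 2 and lowest of the flown arrays in replicate 3. The Chrnd and Chrng subunits, further E-box targets, were not called. Against FC 3 rose (Musk, Gadd45a and Runx1) and 4 fell (Sln, Lrp4, Chrna1 and Rapsn).

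**Figure D5:**
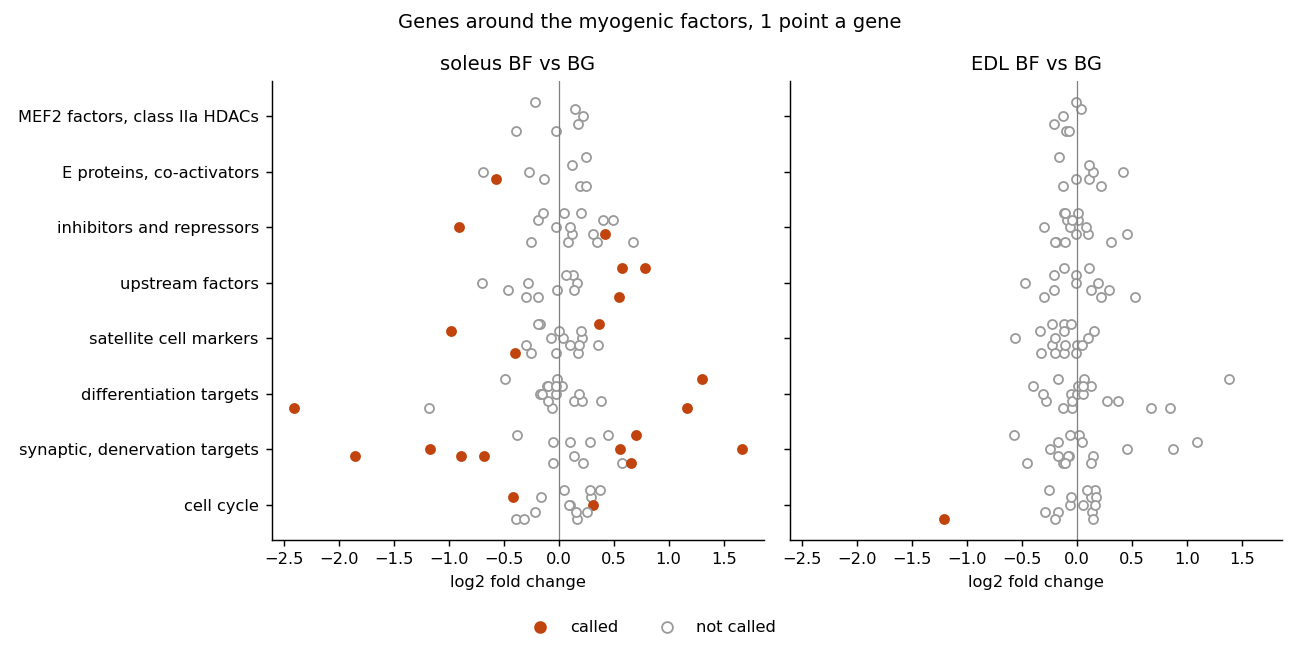
Log2 fold change for BF vs. BG (horizontal axis) of each measured gene in 8 lists around the myogenic factors, in soleus and in EDL; filled points passed an adjusted p under 0.05 and the vertical spread within a list has no meaning. In soleus called genes lie on both sides of 0 in 5 of 8 lists, led by Musk and Cdkn1a to the right and Myh3 and Sln to the left, and in EDL 1 gene, Aurka, was called.

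In EDL 0.266% of all genes rose and 0.113% fell for BF vs. BG, and 1.02% and 2.52% for BF vs. FC. For BF vs. BG the 1 gene called among the 8 lists was the mitotic kinase gene Aurka (-1.21 ± 0.23, adjusted p = 0.0319). For BF vs. FC, Cdkn1a (2.28 ± 0.34, adjusted p = 0.00181) and Sln (1.59 ± 0.41) rose, and Six2 (-1.45 ± 0.21), Aurka (-1.20 ± 0.23), Lrp4 (-0.62 ± 0.16) and Carm1 (-0.53 ± 0.13) fell. Cdkn1a was 10.58, 10.21 and 10.79 in BF EDL, 7.74, 8.32 and 8.69 in FC EDL and 9.0, 8.86 and 9.59 in BG EDL. Every BF array thus lay above every ground array in this muscle, as for 3.44% of all genes. The difference from BG was not called on this probe set. The paper lists Cdkn1a as regulated in both muscles, in EDL by an unadjusted p. Six2 was also the 1 gene of these lists that differed between FC and BG EDL (1.33 ± 0.21, adjusted p = 0.043).

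Across the 9 soleus arrays Myod1 and Myog went together (Pearson r = 0.924), Myog and Myf6 had r = 0.841, and Myf6 and Mef2c r = -0.886. By Spearman these pairs had 0.8, 0.517 and -0.867 in soleus. Across the 9 EDL arrays the same pairs had r = -0.038, 0.154 and 0.010. Myog and Mef2c had r = -0.83 in soleus and 0.748 in EDL. These correlations describe arrays of 3 conditions and share the differences between them. The genes most like Myod1 over the soleus arrays were Rai14 (r = 0.992), Lce1l (0.986) and Krt2 (0.980), with r of 0.274, -0.042 and 0.086 over the EDL arrays; Lce1l and Krt2 are genes of the cornified epidermis. Those most like Myog were Ier5 (0.978), Asf1b (0.977) and Nfat5 (0.971), with 0.114, 0.345 and 0.662 in EDL. For Myf6 they were Odc1 (0.988), the first enzyme of polyamine synthesis, Ankrd1 (0.983), a titin-binding protein of the stressed muscle, and Oser1 (0.983), with 0.169, 0.437 and 0.847 in EDL.

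Ankrd1 rose by 3.21 in BF soleus against BG (adjusted p = 0.0018) and Odc1 by 0.75 (adjusted p = 0.00785). For Mef2c the most alike were Zfp362 (0.976), Usp2 (0.974) and Inppl1 (0.973), with 0.347, -0.159 and -0.019 in EDL. For Myf5 they were Ctnna1, Degs1 and Gjc1 (0.952, 0.949 and 0.939), and for Pax7 Abca1, Pml and Zfp160 (0.963, 0.949 and 0.949), none of which was called in soleus for BF vs. BG.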

How the data were processed

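Total RNA of whole soleus and EDL muscles was hybridised to 18 single-colour Affymetrix mouse arrays. The deposited values are log2 signals, which the authors made from the scanned arrays by RMA in Partek (background correction, quantile normalization and median polish over all arrays); RMA shrinks low signals, which understates changes of dim probe sets. Of 22690 probe sets, 64 controls were left out. By the annotation deposited with the platform 20393 probe sets name 1 gene, 691 several and 1606 none.

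The 6 groups, taken from the sample titles, each had a mean in one limma 3.58.1 fit (R 4.3.3) to 22626 probe sets, whose variances were moderated with 5.1 prior beside 12 residual degrees of freedom. P-values were adjusted by Benjamini and Hochberg over all probe sets. The number of arrays, 3 a group, limits the precision, and p-values measure the spread between these arrays. A gene with several probe sets is represented by the one with the highest mean. Named are all 6 factors, of each list around them up to 4 called genes with the largest change in a comparison, with further called genes of a list named where its count is given, and the 3 genes that correlate best with each factor over the soleus arrays. The factors and lists were chosen with earlier results of these data known, so counts over them carry no test. The authors' platform annotation can be old. Descriptions of 2 BF EDL samples name Bion M2 and M3 in place of M1, which was taken as a slip. Figures were drawn with matplotlib.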

Additional observations from a re-analysis of the deposited data

Results flagged for a closer look

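The BF vs. BG response differed between the muscles by a test of that difference (limma interaction) for 2 genes and 1 further probe set. For Myod1 the soleus response exceeded that of EDL by 2.73 log2 units (adjusted p = 0.0362), for Myog by 1.76 (adjusted p = 0.0129), and for the Mef2c probe set 1451507_at it was lower, by -1.15 (adjusted p = 0.00686). Only in Myog and 1451507_at did the call hold on leaving out any single array, and none of the 3 held with the 4 arrays of high epidermis signal left out.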

How the results depend on the processing

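Up to 21 alternatives were run for each comparison. The rise of Myf6 in soleus and its rise over FC in EDL, and the rise of Myog over BG in soleus, were called in all of theirs. The count of called factors in soleus for BF vs. BG (3 of 6) was within 1.5 times of its value in all.

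Leaving out 1 array at a time, the count ran from 2 to 4 in soleus for BF vs. FC (4 with all arrays), from 0 to 1 in EDL for BF vs. BG (1), from 1 to 2 for the difference of the BF vs. BG response between muscles (2), from 0 to 2 for that of BF vs. FC (0), from 1 to 2 for soleus vs. EDL in BF (1) and from 0 to 1 in BG (1). With the 4 arrays of high epidermis signal left out, chosen after seeing the data, these counts were 1 in soleus for BF vs. FC, 0 in EDL for BF vs. BG, 0 for the difference of the BF vs. BG response, 0 for soleus vs. EDL in BF and 2 in FC, and Myod1 in soleus BF vs. FC turned to -0.45; fewer arrays were then compared. Ordinary linear contrasts without moderation gave 2 in soleus for BF vs. FC, 0 in EDL for BF vs. BG, 1 for the difference of the BF vs. BG response and 0 for soleus vs. EDL in BG. Array quality weights gave 1 in soleus for FC vs. BG, 4 for the difference of the BF vs. FC response, 2 for soleus vs. EDL in BF and 4 in FC. EDL arrays fitted alone gave 0 for BF vs. BG. With Mef2c taken from 1451506_at or 1451507_at the count for soleus vs. EDL in BG was 2, and from 1421028_a_at or 1451507_at that in soleus for FC vs. BG was 1. The cause was not tested.

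The labels give no pairing, and same-numbered deviations did not all correlate: from -0.06 to 0.24 in soleus, with 3 of 9 over 0.1, and from -0.13 to 0.30 in EDL, with 4 of 9. Between the muscles of a condition they correlated from -0.05 to 0.37, with 6 of 9 over 0.1, and 6 of 9 soleus arrays matched their own number best, so whether these share a mouse stays unknown. A block for a number within a condition moved no count between muscles by over 1.5 times. With the replicate block across conditions the count was 0 in EDL for BF vs. BG and 0 for soleus vs. EDL in BG, and no other count moved by over 1.5 times. That block was set for each muscle with replicate 1 as its base. Under it soleus vs. EDL compares fitted replicate 1 levels and not group means (Myod1 in BG -1.51 in place of -1.76). Its count for soleus vs. EDL in BG therefore cannot show whether that call depends on the block. Low signals limit what could be seen of Myf5 and Pax7.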
